A study of Rattus norvegicus with 4 samples.

Results

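The cadherins, the protocadherins and 13 listed immunoglobulin adhesion molecules of neural cells were examined in cells sorted on p75. These cells came from cultures of rat olfactory ensheathing cells and are called p75High and p75Low. The rule goes by gene name and uses no measured value, though the families were picked with earlier results of these data known. Every probe whose gene name in the array files was Cdh with a number, or began with Pcdh, was a member, as was every probe named for Ncam1, Ncam2, L1cam, Chl1, Nrcam, Nfasc, Cntn1, Cntn2, Cadm1, Mcam, Alcam, Vcam1 or Icam1. This gave 94 of the 41012 gene probes on the array and 65 genes, of which 19 were cadherins, 34 protocadherins and 12 immunoglobulin molecules. Cadm1 had no probe of that name. After the filter on dim probes, described below, 44 of the 65 genes were among the 22194 genes tested.

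The p75High and p75Low cells came from cultures of olfactory ensheathing cells of male Fischer rats and were separated by flow cytometry on p75, at a purity of 98% per the labels. Each of 4 biological replicates gave a p75High and a p75Low sample, which shared 1 array, always with p75High labelled in Cy5 and p75Low in Cy3. The RNA of both populations was amplified by a global PCR, and no array had the dyes exchanged, so dye and population cannot be told apart. The labels state biological replicates but not whether they came from separate animals or cultures, so p-values cover only the spread over these samples, and part of it may be technical. Animal age is not given in the labels.

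Ensheathing cells are the glia of the olfactory nerve, and their contacts with axons, with each other and with fibroblasts depend on adhesion molecules. Classical cadherins bind the same cadherin on a neighbouring cell in the presence of calcium and are linked by catenins to the actin cytoskeleton. Clustered protocadherins are made in many isoforms and give neurons a surface identity, while non-clustered protocadherins act in cell sorting and adhesion. The immunoglobulin molecules of the NCAM and L1 families bind without calcium, on glia and on growing axons, and guide or bundle neurites.

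Ngfr, which encodes p75, followed the sort labels on each array. Its log2 ratio of p75High over p75Low was 6.07, 6.17, 5.02 and 5.96 on replicates 1 to 4 (5.80 ± 0.53, SD, n = 4; limma adjusted p = 0.0262). Markers of microglia and macrophages went the other way, with 8 of 10 tested members of the list past the threshold and lower, and their summed normalized intensity was 4652 to 10113 in p75High and 225308 to 358080 in p75Low. The summed intensity of 6 tested fibroblast markers was 60635 to 84229 in p75High and 13284 to 34944 in p75Low, although their median log2 ratio was -0.94. That of 10 ensheathing and Schwann glia markers was 30441 to 43641 in p75High and 3012 to 15192 in p75Low. Past the threshold were 0 of the fibroblast markers and 1 of the glial ones, Ngfr itself. Of 7 tested neuronal and 6 tested epithelial markers 0 passed, with medians of -0.32 and 0.55. No tested marker of these lists was below background on every array of a channel. The part of these other cell types in the ratios below was not tested, and in such bulk samples fewer cells of a type and less RNA per cell cannot be told apart.

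The probes are 60 bases long. Those shown belong to genes on which the results turn and read through in at least 1 frame without a stop. Capitals mark a match to GANNNNGGNNNNCC, the letters that codons for an acidic residue, any residue, glycine, any residue and proline can spell, a run found in the extracellular repeats of cadherins. The deposited files place the Mcam probe at chr8:47125549-47125608 on the plus strand, the Pcdh1 probe at chr18:31119291-31119350 on the minus strand and the Cdh13 probe at chr19:49566285-49566344 on the plus strand of rn4, the build named in the file headers. The Pcdhgc3 probes lie at chr18:30716221-30716280 and chr18:30716657-30716716, and the Pcdhb13 probes at chr18:30251097-30251156 and chr18:30252241-30252300, all on the plus strand. The Ncam1 probe is given a span longer than itself, chr8:52825923-52826918 on the minus strand, and the files give no position for the Chl1 probes. Exon positions were not used here.
Chl1, brightest probe: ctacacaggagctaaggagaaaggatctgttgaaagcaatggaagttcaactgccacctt
Chl1, another probe: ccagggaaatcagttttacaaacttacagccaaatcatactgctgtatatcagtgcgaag
Mcam, brightest probe: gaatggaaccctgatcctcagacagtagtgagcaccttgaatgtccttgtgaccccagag
Ncam1: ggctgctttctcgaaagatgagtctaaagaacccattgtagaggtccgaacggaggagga
Cdh13: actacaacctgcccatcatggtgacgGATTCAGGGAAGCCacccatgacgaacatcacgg
Pcdh1: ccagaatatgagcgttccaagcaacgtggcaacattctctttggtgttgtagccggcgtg
Pcdhgc3, brightest probe: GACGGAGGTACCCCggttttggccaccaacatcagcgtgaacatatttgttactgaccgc
Pcdhgc3, other probe: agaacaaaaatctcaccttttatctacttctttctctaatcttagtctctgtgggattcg
Pcdhb13, brightest probe: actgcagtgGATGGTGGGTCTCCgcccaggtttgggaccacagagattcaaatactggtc
Pcdhb13, other probe: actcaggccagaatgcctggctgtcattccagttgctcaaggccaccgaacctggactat

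The motif was present on the probe strand of 8 of 44 protocadherin probes (18.2%), 2 of 30 cadherin probes (6.67%) and 0 of 20 immunoglobulin probes, against 341 of all 41012 gene probes (0.831%). On the other strand the shares were 2.27%, 0%, 0% and 0.671% in the same order, and no other motif was searched. These are descriptions of the probe letters. Between probes of different members the highest identity in an ungapped alignment was 37 of 60 bases, for the gamma isoforms Pcdhga11 and Pcdhga5.

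The comparison asked which adhesion genes differ between the p75High and p75Low sorts, which also differed in the cell type markers above. The highest mean ratios belonged to the immunoglobulin molecules Chl1 and Mcam, followed by the protocadherin Pcdh1, and the highest cadherin was Cdh2. The log2 ratios of these 4 genes averaged 5.18, 5.15, 3.58 and 3.24 and were above 0 on each of the 4 arrays. The order depends on the processing, since with the ratios of the scanner software Pcdh20 (5.89) and Cdh2 (5.70) exceeded Mcam (5.52), Chl1 (5.46) and Pcdh1 (5.41). Without replicate 4, Pcdh20 (4.65) exceeded Mcam (4.40), and the cadherins Cdh6 (3.47) and Cdh19 (3.22) exceeded Cdh2 (2.24). None of the 44 tested members passed the adjusted threshold of 0.05 in limma in either direction, where 0.748% of all tested genes did (0.311% higher and 0.437% lower). At an unadjusted p under 0.05, 11 members were higher and 1 was lower, 25% and 2.27% of the 44, against 5.82% and 6.9% of all tested genes. The ratio was above 0 on all 4 arrays for 9 members and below 0 on all 4 for 3, that is 20.5% and 6.82%, against 12.5% and 13% of all genes. A mean ratio above 0 was found for 27 members (61.4%) and 48.6% of all genes, a mean of at least 1 for 16 members (36.4%) and 15.1%, and a mean of -1 or less for 2 members (4.55%) and 17.3%.

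The filter bears on these counts. A probe was kept if 3 or more arrays showed it well above background in p75High, or 3 or more in p75Low, and 5 members (Cdh2, Cdh6, Cdh19, Pcdh20 and Pcdhb14) met this through p75High alone and 2 (Cdh18 and Pcdhgb7) through p75Low alone. Among the 37 members that met it in both channels, 7 were higher and 1 was lower at an unadjusted p under 0.05 (18.9% and 2.7%), against 5.71% and 7.25% of the 17668 genes kept in the same way. The median log2 ratio was 0.49 over the 44 tested members and -0.03 over all tested genes. Over the 37 members kept through both channels it was 0.27, against -0.06 over all genes kept in the same way. By replicate, the median of the members was 0.58, 0.29, 0.06 and 0.05.

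**Figure D1:**
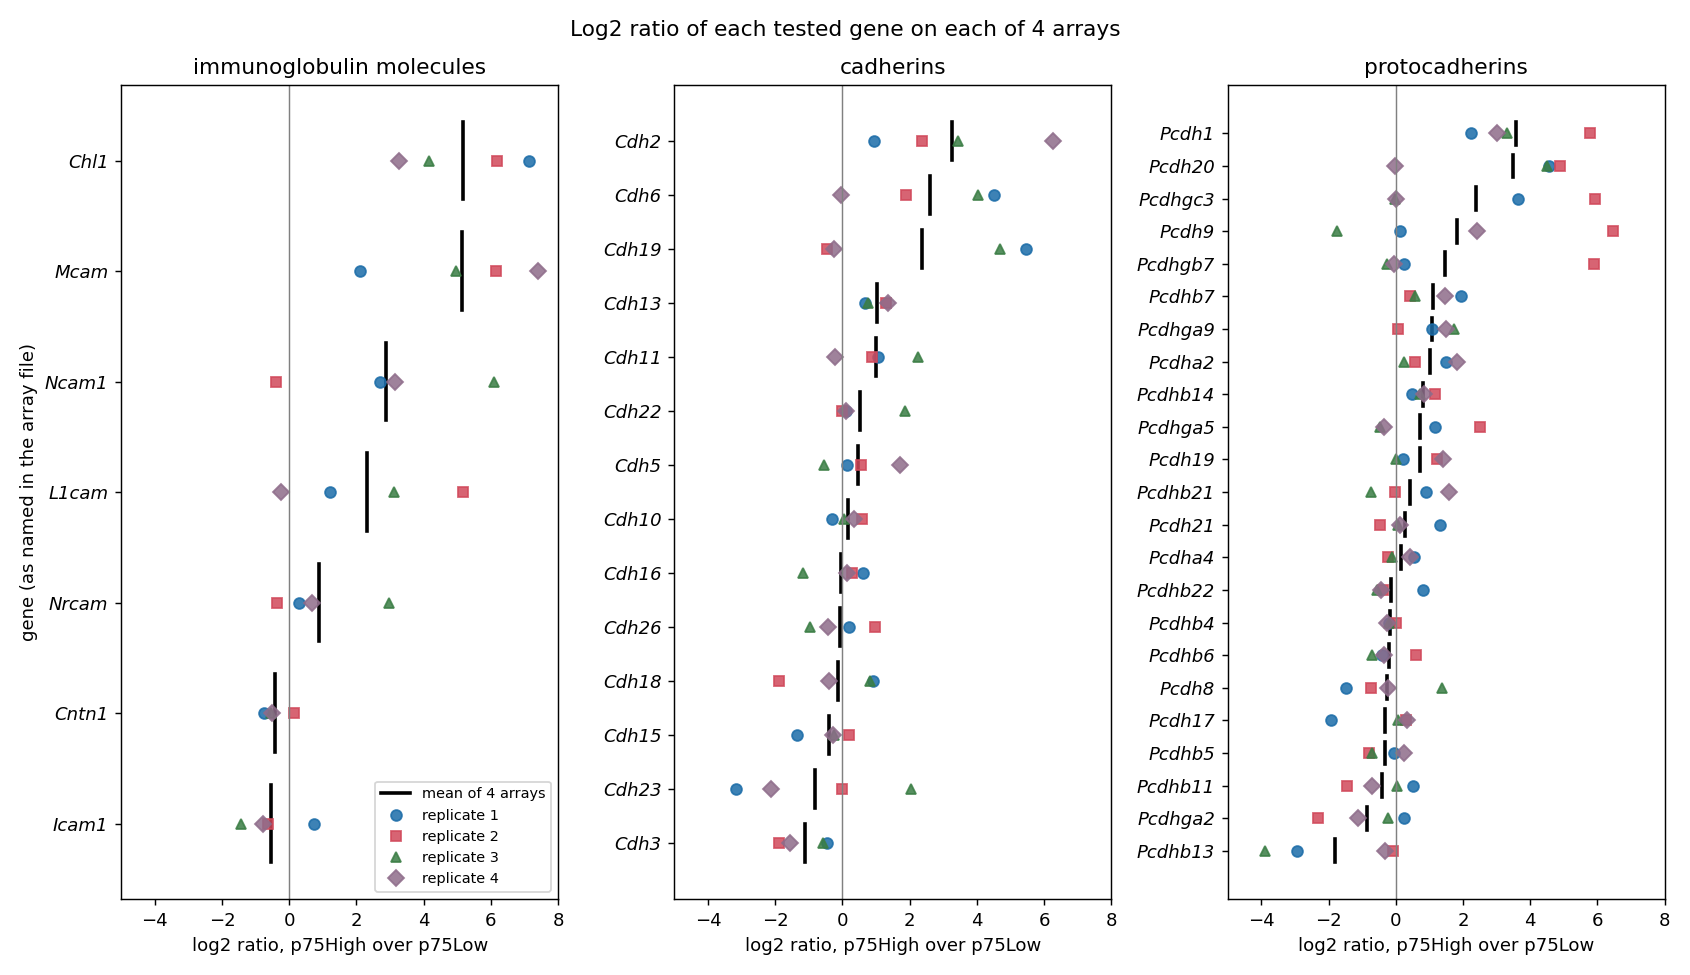
Log2 ratio of p75High over p75Low for each tested gene, with 1 point per array, a black bar at the mean of the 4 arrays and a panel for each family. Chl1 and Mcam have the highest means, and all 4 of their points lie above 2. Most other genes with a mean over 2 have at least 1 array near 0.

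The 7 tested immunoglobulin molecules had a median ratio of 2.31, above those of the other families. By replicate their median was 1.20, 0.16, 3.11 and 0.69. On replicate 2 it was below the medians of the cadherins (0.42) and protocadherins (0.30). The median of the mean ratios was 0.51 over all 12 genes without the filter on dim probes and 1.36 without replicate 2. Chl1, the close homologue of L1 that acts in neurite growth and neuronal migration, had log2 ratios of 7.14, 6.18, 4.15 and 3.27 on replicates 1 to 4. Its normalized log2 intensity was 14.68, 14.59, 13.55 and 14.83 in p75High, against 7.54, 8.41, 9.39 and 11.56 in p75Low. The populations did not overlap, and p75Low varied over the arrays far more than p75High. The mean ratio was 5.18 ± 1.78 (SD, n = 4), a 36.4-fold ratio, with an unadjusted 95% interval of 3.18 to 7.19 and an adjusted p of 0.102 in limma, the lowest of the members. With the channels of an array taken as unpaired samples its adjusted p was 0.0266, in a setting that called 0.685% of all genes higher and 0.703% lower. Over all alternatives the adjusted p ranged to 0.353. The other Chl1 probes read 0.39, 4.54, 3.59 and 5.44 (mean 3.49), and 6.52, 6.04, 6.26 and 1.78 (mean 5.15), so every probe was higher in p75High on every array while the order of the arrays differed between probes.

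Mcam encodes CD146, a surface molecule of endothelium, smooth muscle and Schwann cells. Its log2 ratios were 2.10, 6.16, 4.95 and 7.41. The normalized log2 intensity was 13.63, 15.07, 14.22 and 15.15 in p75High, against 11.53, 8.91, 9.27 and 7.74 in p75Low, again without overlap. The mean was 5.15 ± 2.27 (SD, n = 4), a 35.6-fold ratio, with an interval of 2.66 to 7.65 and a limma adjusted p of 0.167, which became 0.0225 with the channels taken as unpaired and ranged to 0.449 over all alternatives. The other Mcam probe gave lower ratios, 0.67, 2.04, 3.50 and 3.73 with a mean of 2.48, all in the same direction. Beside this, the summed intensity of 6 tested endothelial markers, Cdh5 among them, was 1640 to 3194 in p75High and 892 to 1238 in p75Low. That of 5 tested smooth muscle and pericyte markers was 3129, 3236, 4168 and 1051 in p75High on replicates 1 to 4. In p75Low it was 1483, 26839, 2444 and 1177, so replicate 2 alone was far higher there. The part of these cell types in the Mcam ratio was not tested.

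Ncam1, the neural cell adhesion molecule of glia and neurons, had log2 ratios of 2.71, -0.38, 6.08 and 3.14. In p75High its normalized log2 intensity was 12.02, 6.04, 12.99 and 9.81, and in p75Low it was 9.31, 6.43, 6.91 and 6.67. Replicates 1, 3 and 4 were high in p75High, while replicate 2 was not well above background there, and the populations overlapped. In p75Low the probe was not well above background on replicate 4. The mean was 2.89 ± 2.65 (SD, n = 4; interval 0.0059 to 5.77; limma adjusted p = 0.393).

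L1cam, a cell surface molecule that ensheathing cells and axons share, had log2 ratios of 1.20, 5.17, 3.11 and -0.23. Its normalized log2 intensity was 7.75, 12.62, 13.75 and 6.99 in p75High and 6.55, 7.45, 10.64 and 7.22 in p75Low. Replicates 2 and 3 were high in p75High and replicate 4 was slightly lower there than in p75Low, so the populations overlapped. The mean was 2.31 ± 2.35 (SD, n = 4; interval -0.26 to 4.89; limma adjusted p = 0.428).

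The remaining immunoglobulin molecules had smaller means. Nrcam, of the L1 family and known from nodes of Ranvier, had log2 ratios of 0.29, -0.37, 2.98 and 0.69 (0.90 ± 1.45; limma adjusted p = 0.583), with replicate 3 alone well away from 0. Cntn1, a contactin held in the membrane by a lipid anchor, read -0.74, 0.16, -0.53 and -0.52 (-0.41 ± 0.39; interval -1.21 to 0.39; limma adjusted p = 0.595). Icam1, a ligand of leukocyte integrins, read 0.75, -0.63, -1.44 and -0.79 (-0.53 ± 0.92; interval -1.71 to 0.66; limma adjusted p = 0.640). Alcam, Cntn2, Ncam2, Nfasc and Vcam1 had no kept probe.

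**Figure D2:**
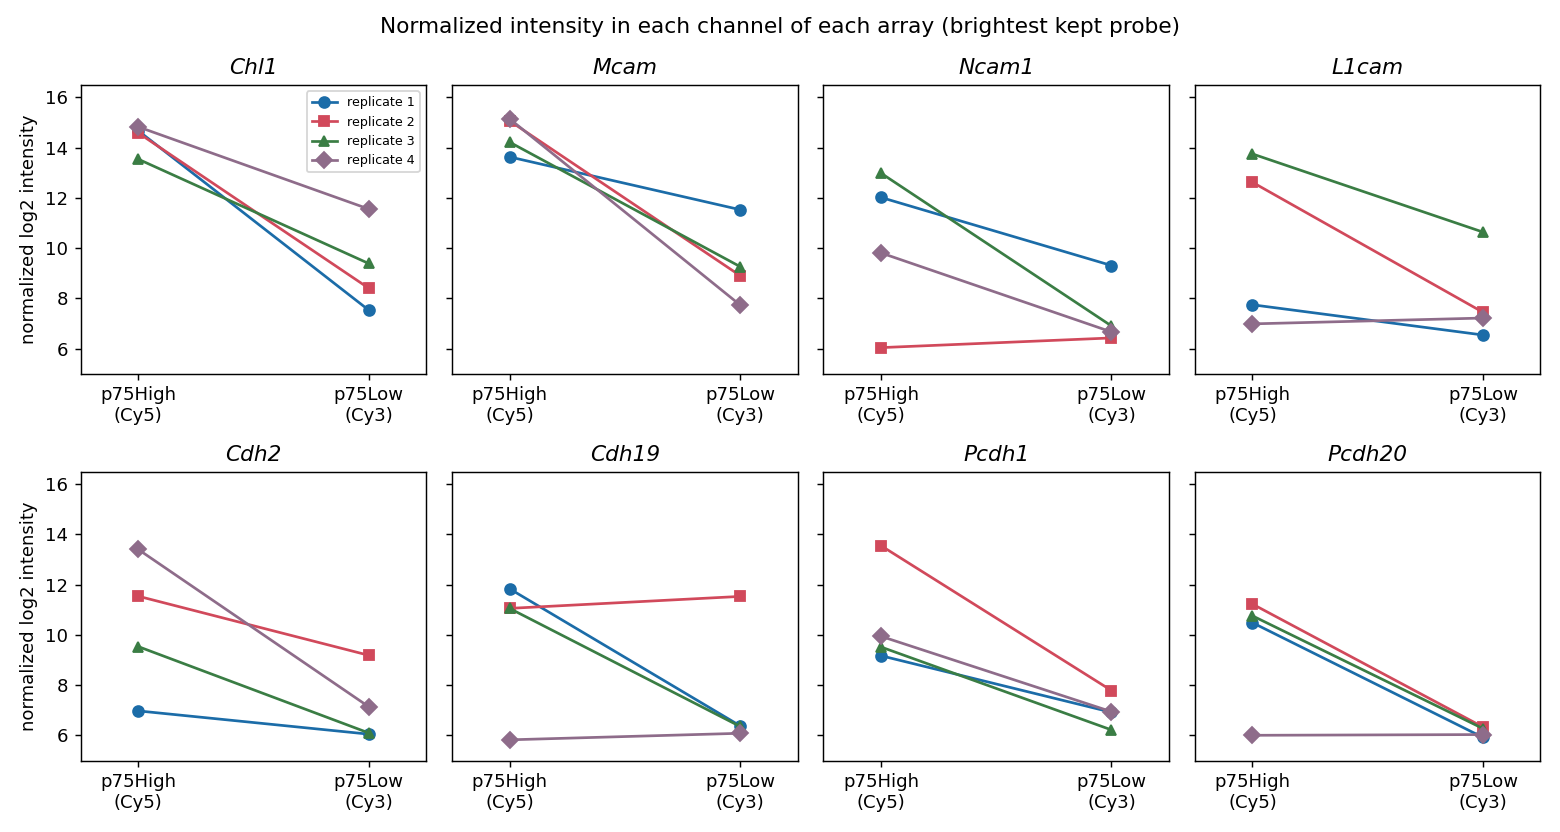
Normalized log2 intensity of the brightest kept probe in p75High (Cy5) and p75Low (Cy3) for 8 genes, with a line joining the channels of each of the 4 arrays. Chl1, Mcam and Pcdh1 are separated on every array, whereas Ncam1, L1cam, Cdh19 and Pcdh20 have at least 1 array on which the channels meet.

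Among 14 tested cadherins the median ratio was 0.31, with 2 genes above 0 on all 4 arrays and 1 below. Cdh2 encodes N-cadherin, the classical cadherin of neural tissue and of ensheathing and Schwann cells. Its log2 ratios were 0.93, 2.35, 3.44 and 6.26, and its normalized log2 intensity was 6.98, 11.54, 9.54 and 13.41 in p75High, against 6.05, 9.19, 6.10 and 7.15 in p75Low. Each array was higher in p75High, yet the populations overlapped across arrays, with p75Low on replicates 2 and 4 above p75High on replicate 1. The mean was 3.24 ± 2.26 (SD, n = 4; interval 0.76 to 5.73; limma adjusted p = 0.320), and p75Low was well above background on 2 arrays.

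Cdh3, the classical P-cadherin of epithelia, was the cadherin with the lowest mean ratio. Its log2 ratios were -0.46, -1.89, -0.57 and -1.57, and its normalized log2 intensity was 9.14 to 10.24 in p75High and 10.17 to 11.80 in p75Low. Every array was lower in p75High although the ranges met at their edges. The mean was -1.12 ± 0.72 (SD, n = 4; interval -2.14 to -0.10; limma adjusted p = 0.362), and it was the only tested member lower at an unadjusted p under 0.05. Cdh15, the muscle M-cadherin, averaged -0.42 ± 0.65, and Cdh1, the epithelial E-cadherin, had no kept probe and was well above background on 2 arrays in p75High and 1 in p75Low.

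Cdh13 encodes T-cadherin, an atypical cadherin with a lipid anchor in place of a cytoplasmic tail. It had the smallest SD of the tested cadherins, with log2 ratios of 0.68, 1.28, 0.76 and 1.36. The normalized log2 intensity was 8.76, 9.40, 8.93 and 9.58 in p75High and 8.08, 8.12, 8.18 and 8.22 in p75Low. The populations did not overlap, and the p75Low values were almost level. The mean was 1.02 ± 0.35 (SD, n = 4), a 2.03-fold ratio (interval 0.24 to 1.80; limma adjusted p = 0.318). Another Cdh13 probe, well above background on 2 arrays in each channel and so not kept, read 1.89, -0.95, 1.12 and -0.10.

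The 7 tested type II cadherins had a median of 0.51. Cdh19, a cadherin of Schwann cell precursors and ensheathing glia, had log2 ratios of 5.45, -0.48, 4.70 and -0.26 (2.35 ± 3.16; interval -1.06 to 5.76; limma adjusted p = 0.507). On replicate 2 it was bright in both populations, at 11.06 in p75High and 11.53 in p75Low, and on replicate 4 it was well above background in neither. Cdh11, a cadherin of mesenchymal cells and migrating neural crest, read 1.06, 0.89, 2.26 and -0.21 (1.00 ± 1.01; limma adjusted p = 0.469), and its other kept probe read 3.81, 0.53, 1.69 and 0.91. Cdh5, the VE-cadherin of endothelium, read 0.15, 0.55, -0.56 and 1.70 (0.46 ± 0.95; limma adjusted p = 0.685). Its other kept probe read 0.24, 0.40, -1.23 and 0.30, with a mean of -0.07.

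Cdh6, a cadherin of kidney and neural crest, lay outside the rule for named genes and was chosen after its values were seen. Its log2 ratios were 4.50, 1.88, 4.04 and -0.04, and p75Low was not well above background on any array. p75High was so on replicates 1, 2 and 3. The p75High mean was 5.78-fold above a ceiling for p75Low (limma adjusted p of the ratios = 0.359). This ceiling takes, on each array, the higher of the lowest signal well above background and the probe's own p75Low signal. It averaged 6.18 in normalized log2 intensity, close to the p75Low mean of 6.12. The fold value is no lower bound on the difference, since p75High itself was not well above background on replicate 4. The size depends on the processing, as the mean log2 ratio of Cdh6 was 2.59 here and 5.24 with the ratios of the scanner software. The other tested cadherins, Cdh10, Cdh16, Cdh18, Cdh22, Cdh23 and Cdh26, had means between -0.81 and 0.51, and Cdh7, Cdh8, Cdh9 and Cdh17 had no kept probe.

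The non-clustered protocadherins had a median of 0.71 over 7 tested genes. Pcdh1, an adhesion molecule known from airway epithelium and neural cells, had log2 ratios of 2.25, 5.76, 3.30 and 3.00. Its normalized log2 intensity was 9.17, 13.55, 9.52 and 9.95 in p75High and 6.92, 7.79, 6.22 and 6.95 in p75Low. All p75High values lay above all p75Low values, and on replicate 3 p75Low was not well above background. The mean was 3.58 ± 1.52 (SD, n = 4), an 11.9-fold ratio, with an interval of 1.83 to 5.33 and a limma adjusted p of 0.168. With the ratios of the scanner software its mean was 5.41 and its adjusted p 0.0493, in a setting that called 0.509% of all genes higher and 0.694% lower. Over all alternatives its adjusted p ranged to 0.395.

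Pcdh20 and Pcdh9, also non-clustered, were chosen after their values were seen. Pcdh20 had log2 ratios of 4.56, 4.89, 4.48 and -0.03, with p75High at 10.49, 11.23, 10.76 and 6.01 and p75Low at 5.93, 6.34, 6.28 and 6.04 in normalized log2 intensity. Replicates 1 to 3 were alike, and on replicate 4 neither population was well above background. As p75Low was not so on any array, a ceiling for it was taken as for Cdh6. The p75High mean was 10.8-fold above that ceiling (limma adjusted p of the ratios = 0.311). With replicate 4 included, this is no lower bound on the difference either. Pcdh9 had the widest range of all tested members, at 0.12, 6.47, -1.75 and 2.41 (1.81 ± 3.54; limma adjusted p = 0.618). These values rest on 1 probe, since the other Pcdh9 probes were too dim to be kept and had means of -0.01, -0.003 and 0.04. The other genes counted as non-clustered, Pcdh8, Pcdh17, Pcdh19 and Pcdh21, averaged between -0.31 and 0.71. RefSeq's table gives the accession of the Pcdh21 probe to Cdhr1, so its place in this group and in the group's median is uncertain.

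Of the 23 clustered protocadherins, 16 were tested, with a median of 0.30. The 2 alpha genes had a median of 0.60, the 9 beta genes -0.16 (0.00011 with median centring) and the 5 gamma genes 1.09. On replicates 1 to 4 the gamma median was 1.07, 2.50, -0.24 and -0.06, so it was below 0 on replicates 3 and 4. The beta median was 0.48, -0.02, -0.55 and -0.25, and the alpha median 1.01, 0.17, 0.07 and 1.13. Pcdha2, of the alpha cluster, had log2 ratios of 1.48, 0.56, 0.25 and 1.81 (1.03 ± 0.74; interval -0.01 to 2.07; limma adjusted p = 0.396). RefSeq's table lists that name as an older symbol of Pcdha4, the name of the other tested alpha gene, so its identity is uncertain. Pcdhb7, of the beta cluster, read 1.93, 0.43, 0.57 and 1.47 (1.10 ± 0.72; interval 0.08 to 2.12; limma adjusted p = 0.369), and Pcdhga9, of the gamma cluster, read 1.07, 0.06, 1.73 and 1.49 (1.09 ± 0.74; interval 0.05 to 2.12; limma adjusted p = 0.377). These 3 genes had a mean near 1 and a positive ratio on each array. They were named for 1 sign on all arrays and an absolute mean of at least 1, so this likeness follows from the choice. Pcdhb14 was also above 0 on each array (0.81 ± 0.29) and was well above background in p75Low on 1 array, and Pcdhb4 was below 0 on each (-0.16 ± 0.11). The other tested clustered genes, except those described next, averaged between -0.85 and 1.45, for Pcdhga2 and Pcdhgb7.

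Pcdhb13 had the lowest mean of the tested members, and its probes disagreed. The brightest probe, which carries the motif, read -2.95, -0.08, -3.90 and -0.31 (-1.81 ± 1.91; interval -3.94 to 0.32; limma adjusted p = 0.445). Its normalized log2 intensity was 9.52, 9.08, 8.59 and 8.66 in p75High, against 12.46, 9.16, 12.49 and 8.97 in p75Low, so that replicates 1 and 3 alone stood apart. The other probe, further along the same chromosome, read 0.88, 0.04, -0.27 and -0.10, with a mean of 0.14. RefSeq's current table lists the name Pcdhb13 as an older symbol of Pcdhb12, so the identity of this gene is uncertain.

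Pcdhgc3, a C-type gamma isoform, was chosen after its values were seen because its array pattern was uneven. The probe with the motif read 3.64 and 5.93 on replicates 1 and 2, and ratios within 0.03 of 0 on replicates 3 and 4. In normalized log2 intensity p75High was at 10.71, 13.62, 11.03 and 7.90, and p75Low at 7.06, 7.70, 11.06 and 7.91, so on replicates 3 and 4 the populations were nearly equally bright. The other probe read 4.12, 3.86, 3.43 and -0.04, which differs from the brightest on replicate 3. The limma adjusted p of the brightest was 0.484.

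**Figure D3:**
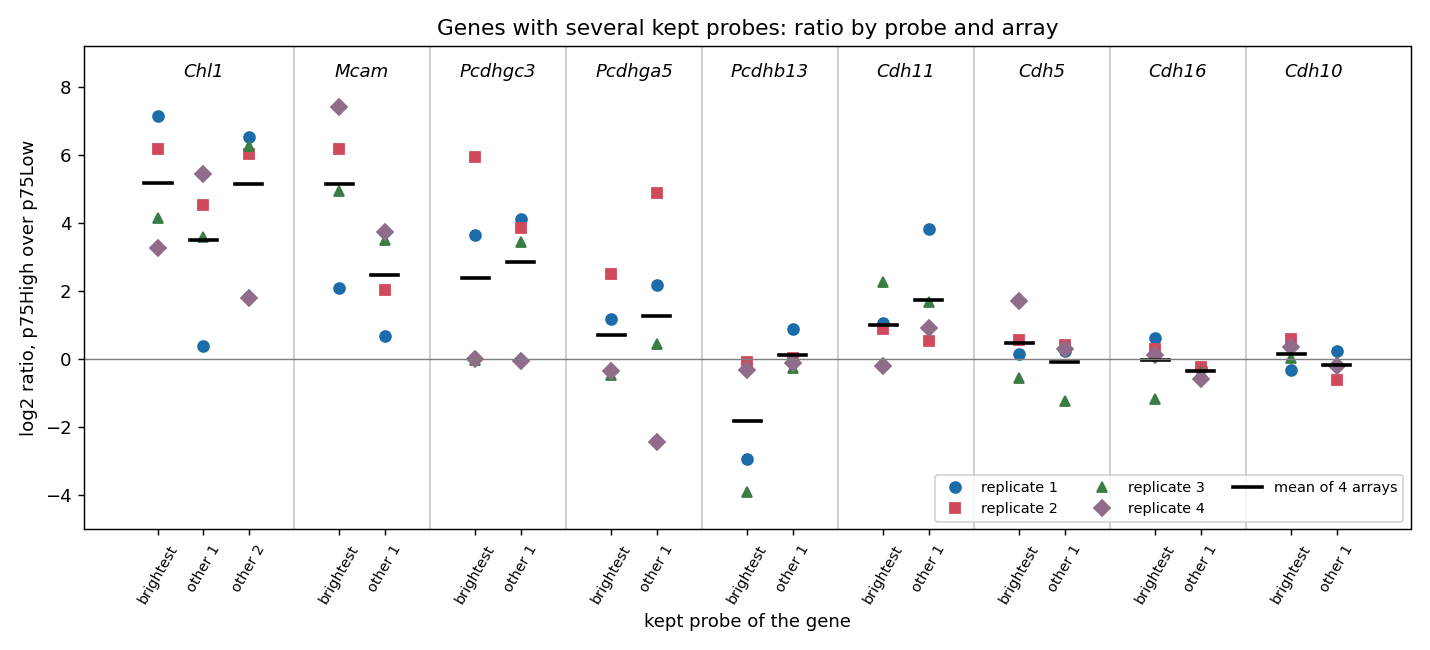
Log2 ratio of p75High over p75Low on each of 4 arrays for every kept probe of the 9 genes with more than 1, with a black bar at the mean of the 4 arrays and the brightest probe on the left of each gene. All 3 Chl1 probes and both Mcam probes are above 0 on every array, while the probes of Pcdhb13 have means of -1.81 and 0.14.

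Spread between arrays was wide for the members and for genes at large. The highest and lowest ratio of a gene lay over 4 log2 units apart for 11 of the 44 tested members (25%), against 32% of the 22082 genes read on all 4 arrays. The immunoglobulin molecules held 3 of these 11 (Ncam1, L1cam and Mcam), or 42.9% of the 7 tested. The cadherins held 4 (28.6% of 14) and the protocadherins 4 (17.4% of 23). The median SD of the log2 ratio was 0.98 for the members and 1.14 for all tested genes.

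**Figure D4:**
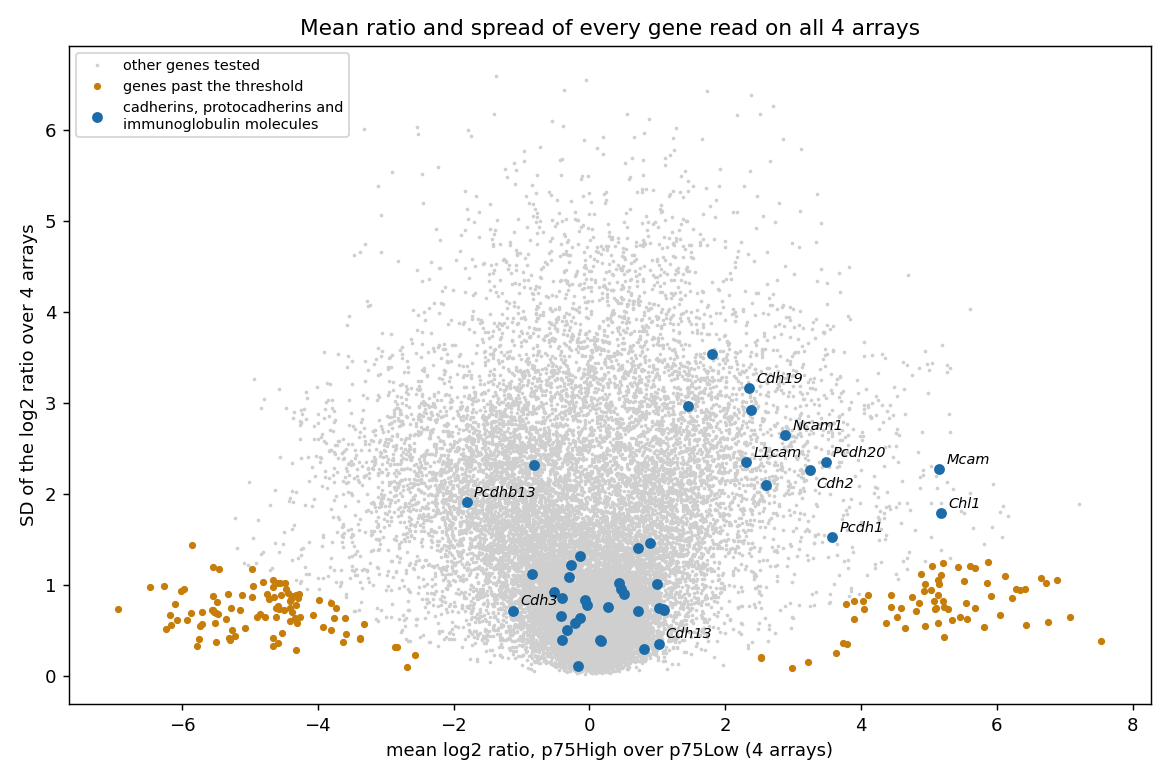
Mean log2 ratio of p75High over p75Low (x axis) against its SD over 4 arrays (y axis) for each gene read on all 4 arrays, with the members in blue and the genes past the threshold in orange. Chl1 and Mcam have means like those of the orange genes on the right but a larger SD, 1.78 and 2.27.

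Of the 21 members without a kept probe, 9 were not well above background on any array in either channel, namely Cdh7, Cdh8, Cntn2, Pcdh3, Pcdhac2, Pcdhb1, Pcdhb3, Pcdhb15 and Pcdhb17. The other 12, among them Pcdh11x, Pcdh12 and Pcdh18, were so on 1 or 2 arrays of a channel. A few had 1 bright reading, in either population. Pcdhga11 stood at 13.30 in p75High on replicate 2, against 6.72 in p75Low, and Pcdh7 at 10.78 in p75High on replicate 3, against 6.34 in p75Low. Ncam2, the NCAM relative that olfactory axons carry, stood at 9.50 in p75High on replicate 1, against 6.11 in p75Low. In the other direction, a probe of Alcam stood at 6.12 in p75High on replicate 3, against 9.91 in p75Low, and Cdh1 at 6.66 in p75High on replicate 1, against 9.29 in p75Low. These 5 genes were singled out after their values were seen, and no ratio of theirs was tested.

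The catenins and other cytoplasmic partners of cadherins did not pass the threshold in any of 11 tested genes of 16 listed, and their median ratio was -0.03 (0.23 with median centring). Ctnnd1, which encodes p120-catenin and stabilises cadherins at the surface, had log2 ratios of 5.27, 6.55, 6.61 and 1.70 (5.03 ± 2.31; limma adjusted p = 0.179). Jup, plakoglobin, averaged -0.87 ± 0.77 (limma adjusted p = 0.454) and Ctnnd2, delta-catenin, 0.49 ± 0.29 (limma adjusted p = 0.524), with p75Low well above background on 1 array. Ctnnb1, beta-catenin, was chosen as the core partner after values were seen and read -1.98, 1.35, 0.31 and 0.22 (limma adjusted p = 0.988). Of these 4, Ctnnd1 lay farthest from 0 on every array.

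Regulators and relatives of the families gave no calls either. Of 8 tested genes for cadherin shedding and transcription, of 9 listed, the median was -0.52, with Adam15, a metalloprotease, at -1.16 ± 0.92 and Zeb1, a repressor of E-cadherin, at -0.39 ± 0.28 (limma adjusted p = 0.400 and 0.586). Of 10 tested genes among 18 other cadherin superfamily genes the median was -0.18. Celsr1, a seven-pass cadherin of planar polarity, read 1.41, 1.65, 1.30 and 2.66 (1.76 ± 0.62; limma adjusted p = 0.200), and Fat1, a giant cadherin, averaged -1.43 ± 2.00 (limma adjusted p = 0.528). The Celsr1 ratio was over 1 on each array.

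Among 28 other immunoglobulin adhesion genes, 21 were tested, 0 passed and the median was -0.09 (0.02 with median centring). Cadm4, which Schwann cells use to bind axons, read 2.60, 3.91, 5.64 and 1.26 (3.35 ± 1.87; limma adjusted p = 0.257). Kirrel1 averaged 1.95 ± 1.60 (limma adjusted p = 0.371), Nectin2 -1.20 ± 0.55 (limma adjusted p = 0.311) and Thy1, also on the fibroblast list, -0.99 ± 0.38 (limma adjusted p = 0.326), with p75High well above background on 2 arrays. Among ligands, anchors and enzymes that serve the immunoglobulin molecules, 15 of 21 were tested, 1 passed and the median was -0.33.

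That gene was Itgam, the integrin subunit of myeloid cells that binds Icam1. It was lower in p75High at -5.40, -6.12, -5.61 and -5.96 (-5.77 ± 0.33; limma adjusted p = 0.0262), and it is also on the list of microglia and macrophage markers given above. Itgal, the subunit of the other leukocyte integrin that binds Icam1, read -4.92, -5.17, -5.65 and -2.96 (-4.67 ± 1.18; limma adjusted p = 0.0552). Dpysl2, a mediator of L1 and semaphorin signals, averaged -2.03 ± 1.66 (limma adjusted p = 0.367) and Ank2, an ankyrin that anchors L1 molecules, 1.27 ± 1.23 (limma adjusted p = 0.436), with p75Low well above background on 1 array.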

How the data were processed

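Per the file headers, 1 slide of Agilent design 014879 held the 4 arrays and Feature Extraction 10.5.1.1 read them, and per the submitters' processing notes this was version 10.5. The deposited intensity values were spot means and local background medians, not normalized. The deposited log10 ratios (red over green) came from the scanner software, per the file headers, and the authors' value table held the same ratios (largest difference 0).

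Normexp background correction (offset 50) was followed by loess within arrays (span 0.3) in limma 3.58.1 under R 4.3.3. Control spots had weight 0, and readings marked as outliers (1112 of 173516, or 0.641%) were left out. No gene spot was saturated (0 spots). The probes well above background on an array numbered 22464 to 28062 in p75High and 23044 to 26174 in p75Low, and the number of arrays limits the precision. Probes well above background in p75High, or in p75Low, on 3 or more arrays were kept (24941 probes), and each gene was read by its brightest kept probe. Log2 ratios were tested against 0, two-sided, with Benjamini-Hochberg adjustment over 22194 genes at 0.05. Intervals are unadjusted limma intervals. Channel levels were taken after scaling between arrays (Aquantile).

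The labels call the samples paired. Deviations of the channels from their group means correlated at 0.125, 0.0609, 0.0671 and 0.259 on the same array for replicates 1 to 4, and at most 0.0507 with any other. Both channels of an array are read from the same spots, so these values cannot tell pairing of the samples from effects of the array.

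Named were all listed immunoglobulin molecules with a kept probe, cadherins and protocadherins past the threshold or of 1 sign on all 4 arrays with an absolute mean of at least 1, and Cdh1, Cdh2, Cdh5, Cdh11, Cdh13 and Cdh19. Of each partner list, genes past the threshold and up to 4 of 1 sign with the largest means were named. Members, lists and rules were chosen with earlier results of these data known. Gene names are those of the array files, and 43 member probes matched RefSeq's GRCr8 table by accession, 46 by symbol and 5 by older symbol. The fit was tested on simulated data. Alternatives were other normalizations, background corrections, filters and probe rules, outlier spots kept, unpaired channels and leaving out each replicate.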

Additional observations from a re-analysis of the deposited data

Results flagged for a closer look

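In 5 of the 48 sets of 4 values examined, 1 array stood far from the other 3 by Dixon's test, which chance gives in about 1 in 20 sets. The sets were the tested members and the medians of all members and of each family, so they were not independent. No share over all tested genes was taken beside this count, so it shows nothing particular to the members. Pcdh20 had a log2 ratio of -0.029 on replicate 4, against 4.48 to 4.89 on the others, and neither channel was well above background there. Pcdhgb7, of the gamma cluster, had 5.89 on replicate 2, against -0.27 to 0.25 on the others. Cdh22 had 1.86 on replicate 3, against -0.02 to 0.11, and Pcdh17 had -1.93 on replicate 1, against 0.08 to 0.33. Pcdhb22, of the beta cluster, had 0.81 on replicate 1, against -0.55 to -0.37. The reason was not tested.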

How the results depend on the processing

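Over 13 alternatives, 22 named genes were followed in 278 values, of which 3 passed the threshold (Pcdh1, Chl1 and Mcam, given in the report). The sign of the mean changed in 0 of them. It was fixed in advance with pairing ignored and with each probe tested alone, since both kept the brightest probe's mean. Taken alone, another kept probe had a mean of the other sign for Cdh5 (-0.07 against 0.46) and Pcdhb13 (0.14 against -1.81). The other kept probes of Cdh11, Chl1, Mcam and Pcdhgc3 had the same sign as the brightest. As 0 of these genes passed at the outset, staying below the threshold is no sign of stability. With the scanner ratios, 1 member was past the threshold and higher, and the counts over all genes were 113 higher and 154 lower, against 69 and 97. Under no replicate block (pairing of the channels ignored), 2 members were higher, and the counts over all genes were 152 and 156. Without the filter on dim probes those counts were 37 and 52. Without any 1 replicate (0 to 0 over replicates 1 to 4) 0 genes passed in limma in either direction, while 1885 to 2372 genes had an unadjusted p under 0.05. The median ratio of the tested members was 0.82 with the scanner ratios, 0.085 without the filter and 0.40 to 0.56 without 1 replicate. Members below 0 on all arrays numbered 1 under scanner ratios, 1 under median centring and 4 to 6 without 1 replicate, when 3 arrays had to share a sign. Median centring moved the median of all genes by 0.16. Of the family medians, that of the immunoglobulin molecules was 0.51, that of the protocadherins 0.13 and that of the cadherins -0.02 without a filter. The protocadherin median was -0.14 with the stricter filter, 0.91 with the scanner ratios and 0.82 without replicate 3. The cause was not tested where fewer genes or arrays do not give it. With 4 arrays, 0 calls among members do not show equal levels.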

Other observations

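Cadm1, an adhesion molecule of Schwann cells and neurons, was read by a probe under the older name Igsf4a and was not counted among the members. Its log2 ratios of p75High over p75Low were -4.06, 3.46, 7.43 and 2.10 (2.23 ± 4.77, SD, n = 4; limma adjusted p = 0.644), the first array opposite to the rest. Pcdh10, under a provisional name in the files, averaged 1.16 ± 2.25 (limma adjusted p = 0.624), with 4.53 on replicate 3 and the other arrays near 0.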
